A study of Mus musculus with 31 samples.

Results

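Kap, Odc1 and Gusb, 3 of the 23509 genes counted, were followed through the kidneys of 31 mice. Kap (kidney androgen-regulated protein) was chosen by its share of counts, the largest on average at 2.76% over all libraries, and Odc1 (ornithine decarboxylase) and Gusb (beta-glucuronidase) were taken with it by name, as genes of the mouse kidney known to respond to androgen. All 3 were in every library and passed the filter on low counts. The share that chose Kap is a description only. The next gene in that order, the transcript listed as uc009vey.1, held 2.49% and was the largest in 8 libraries, against 23 for Kap. Odc1 held 0.0521% (place 185 in the order) and Gusb 0.00613% (place 3520).

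The study asked how inhibition of the microRNA miR-17 changes gene expression in a mouse model of polycystic kidney disease. There were 12 Pcy/CD1 mice given PBS, 14 Pcy/CD1 mice given RGLS4326, an oligonucleotide that blocks miR-17, and 5 untreated male CD1 mice as wild type (WT). The Pcy/CD1 mice carry the pcy allele in the CD1 strain and develop cystic kidneys. Injections were subcutaneous, began at 5 weeks of age and went on for 25 weeks, RGLS4326 monthly at 25 mg/kg, and kidneys were taken at 30 weeks. PBS was given weekly according to the sample labels and the study's description of the experiment, while the treatment protocol in the labels reads as monthly for both. The WT mice received no injection. The pcy allele, any other genetic difference between the Pcy/CD1 and CD1 mice, and the injections therefore cannot be told apart between PBS and WT. The labels give no sex for the Pcy/CD1 mice, which the study describes as male. Transcripts of 4 Y-linked genes were read in all 31 libraries, and Xist, the RNA of the inactive X, did not exceed 0.300 CPM (counts scaled to a common library size) in any. The levels of those 4 genes were not equal between groups: 3 of the 4 were called lower in PBS than in WT by edgeR's quasi-likelihood test (17.8% of all genes were), only Uty with library size alone as the scale (7.05% of all genes), and Uty went from 29.3 ± 2.93 to 5.89 ± 1.48 CPM (log2 fold change −2.32), with 8.15 ± 1.73 CPM in RGLS4326 mice other than mouse 9 and 23.1 CPM in mouse 9.

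Androgens are steroid hormones that change the transcription of target genes. The proximal tubule of the mouse kidney is a classical target: males express a set of secreted proteins, transporters and enzymes there at higher levels than females. Kap is a small protein secreted by proximal tubule cells, Odc1 is the rate-limiting enzyme of polyamine synthesis, which makes putrescine from ornithine, and Gusb is a lysosomal enzyme that removes glucuronic acid from sugar chains. Whole kidney was sequenced, so fewer cells of a type and less RNA per cell cannot be told apart.

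In the mm10 (GRCm38) build used for the files, Kap lies at chr6:133849851-133853762 on the minus strand, Odc1 at chr12:17544794-17551505 on the plus strand and Gusb at chr5:129989011-130003049 on the minus strand. No other annotated gene overlapped Kap or Gusb, and a small nucleolar RNA gene, Gm22748, lies within Odc1 on the same strand. The bases from 45 to 16 before the RefSeq start of each gene (GRCm38.p6), where a TATA box sits when there is one, are shown because the 3 genes differ there. For Kap and Odc1 they lie inside the first exon of the longer GENCODE M21 gene model. They are written on the strand of the gene, with any match to TATAAA in capitals, and the coordinates follow in the same order, chr6:133853683-133853712, chr12:17544828-17544857 and chr5:130003065-130003094.
Kap: cagagtacaggatgTATAAAagcccaggag
Odc1: ccgggacccgggttggccgccacggagtcc
Gusb: aaggagggggagatattaatagatgtgagg
Of the 250 bases before each start, 80.0% were G or C at Odc1, 45.6% at Kap and 49.6% at Gusb. Kap alone of the 3 held TATAAA (gene strand only), which 7.592% of 32851 promoter windows of that length held. The androgen response half-site AGAACA, searched on both strands, was in none of the 3 windows and in 16.085% of all. The full androgen response element, 2 inverted half-sites 3 bases apart, was in none of the 3 and in 0.009% of all.

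The microRNA that RGLS4326 blocks is printed to show its seed, bases 2 to 8, in capitals; mature miR-17-5p is encoded at chr14:115043684-115043706 on the plus strand (RefSeq, GRCm38.p6).
mmu-miR-17-5p: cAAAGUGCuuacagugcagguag
The longest annotated 3′ untranslated regions (GENCODE M21) were 202 bases in Kap, 333 in Odc1 and 1236 in Gusb, and none held GCACTTT, the match to this seed, which 11.716% of 20971 genes with such a region held.

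Libraries held 14892524 to 27459962 counts assigned to genes. Counts were scaled by edgeR's TMM factors and are given as CPM on that scale. A gene was called changed at an adjusted p under 0.05 (edgeR quasi-likelihood test, Benjamini-Hochberg over 15185 genes) and a log2 fold change beyond 0.5. One library went against its label. Of the 6442 genes called between PBS and WT, the library labelled RGLS4326 mouse 9 lay nearer the WT mean than the PBS mean in 89.9%, against 2.59% to 47.6% in the other 13 of its group. Its Lcn2, a marker of tubular injury, read 2.76 CPM, within the WT range of 0.944 to 11.2 and below the 126 CPM that was lowest in the rest of its group. Gm8615, chosen for naming after its values were seen, read 89.7 CPM in this library and 84.6 to 98.6 in WT, but at most 0.494 in the other 25 Pcy/CD1 mice. The main fits and correlations of the 3 genes that use the RGLS4326 group are therefore given with and without it. The libraries of WT mice 3 and 4 resembled each other more than other WT pairs did (chi-square per gene 2.69, against 16.05 to 22.6) though they differed by more than counting noise, a comparison that 2 libraries of one animal could also exceed. They were used as 2 samples, as labelled, and leaving out either changed no call of Kap, Odc1 or Gusb.

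Per kilobase of exon, the order of the genes was the same in each group. In WT mice Kap stood at 57913 ± 8398 CPM per kilobase (SD, n = 5), Odc1 at 344 ± 75.2 and Gusb at 24.4 ± 3.01. In PBS mice the same levels were 31675 ± 8339, 105 ± 39.5 and 11.2 ± 1.25 (n = 12). In RGLS4326 mice they were 40473 ± 6212, 142 ± 40.6 and 12.2 ± 1.89 (n = 14), or 40032 ± 6233, 135 ± 33.9 and 11.8 ± 1.32 without mouse 9 (n = 13). The ranges of the 3 genes over the 31 mice did not overlap. Each of the 3 genes had its highest mean in WT, the next in RGLS4326 and the lowest in PBS.

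All 3 genes were lower in PBS-treated cystic kidneys than in WT kidneys, Odc1 by the widest margin. For comparison, 17.8% of all genes tested were called lower and 24.6% higher between these groups. How many of all genes had PBS and WT ranges that did not overlap was not counted, so such separation is a description only.

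Kap read 49316, 43673, 35174, 35454 and 41105 CPM in WT mice 1 to 5. In the 12 PBS mice its lowest, median and highest levels were 13789, 21001 and 31683 CPM. Every PBS mouse lay below every WT mouse, and mice 3 and 4 were the lowest of the WT group. Its log2 fold change was −0.87 (SE 0.158, adjusted p = 1.48e-05), a level 0.547 times that of WT. As a plain share of counts Kap went from 3.42% ± 0.452 in WT to 2.39% ± 0.514 in PBS, and on that scale the groups overlapped, the highest PBS share (3.19%) lying above the lowest WT share (2.98%). With library size alone as the scale the log2 fold change was −0.52 (adjusted p = 0.000362). That scale moved the median of all genes by 0.38 on the log2 scale in this comparison, where TMM left it at 0.01, and the share of calls that were higher rose from 58.1% to 85.4% (41.4% of all genes were then called higher and 7.05% lower).

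Odc1 read 1255, 1468, 1202, 1175 and 763 CPM in WT mice 1 to 5. In PBS mice the lowest, median and highest were 232, 350 and 732 CPM. The groups did not overlap, but PBS mouse 4 at 732 CPM and WT mouse 5 at 763 CPM came close, and the next highest PBS mouse was at 433 CPM. Its log2 fold change was −1.71 (SE 0.204, adjusted p = 3.15e-08), a level 0.305 times that of WT. With library size alone it was −1.36.

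Gusb read 92.7, 131, 108, 114 and 108 CPM in WT mice 1 to 5. In PBS mice the lowest, median and highest were 42.3, 50.7 and 65.0 CPM, all below WT. In PBS mice Gusb varied less from mouse to mouse than the others, with a coefficient of variation of 11.1% against 26.3% for Kap and 37.5% for Odc1. In RGLS4326 mice it did not vary less than Kap, at 15.5% against 15.3% for Kap and 28.7% for Odc1. Without mouse 9 these were 11.2%, 15.6% and 25.1%. Between PBS and WT the log2 fold change of Gusb was −1.12 (SE 0.0923, adjusted p = 3.94e-10), or −0.75 with library size alone.

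**Figure D1:**
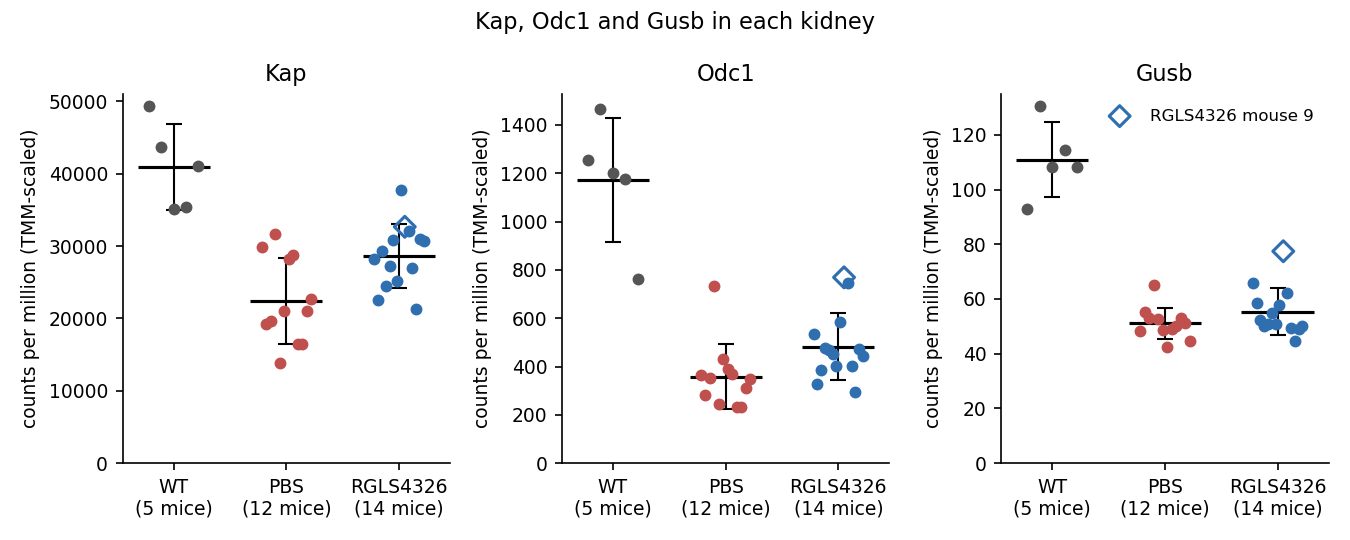
Levels of Kap, Odc1 and Gusb in each kidney, in CPM on the TMM scale, by group. Points are mice, thick lines group means and bars 1 SD, and the open diamond is the library labelled RGLS4326 mouse 9. Every PBS point lies below every WT point in all 3 panels, while the RGLS4326 and PBS points overlap. How often other genes separate in this way was not counted.

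Between RGLS4326 and PBS mice none of the 3 genes was called. Kap passed the adjusted p but not the size threshold, and its p was lost without mouse 9. Over all genes 0.935% were called higher and 1.22% lower, and 9.15% had an adjusted p under 0.05 and a higher level, whatever its size. Without mouse 9 these shares were 0.349% called higher and 4.66% with an adjusted p under 0.05 and a higher level.

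Kap ran from 21376 through a median of 28763 to 37783 CPM in the 14 RGLS4326 mice. All 14 lay above the PBS median of 21001 CPM, and 3 lay above the highest PBS mouse. The log2 fold change was 0.35 (SE 0.122, 95% interval 0.11 to 0.60, adjusted p = 0.0466), a level 1.28 times that of PBS. Without mouse 9, which read 32669 CPM, it was 0.34 (adjusted p = 0.0707). As a share of counts Kap averaged 2.84% ± 0.316 in RGLS4326 mice.

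Odc1 ran from 295 through 461 to 769 CPM in RGLS4326 mice. The highest was mouse 9, followed by mouse 10 at 744 CPM, and 12 of the 14 lay above the PBS median. The log2 fold change was 0.43 (SE 0.160, 95% interval 0.10 to 0.76, adjusted p = 0.0589), or 0.36 (adjusted p = 0.108) without mouse 9. PBS mouse 4 held the other end of the comparison: without it the log2 fold change was 0.57 and the adjusted p 0.00735, past both thresholds.

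Gusb ran from 44.5 through 51.6 to 77.4 CPM in RGLS4326 mice, and 7 of the 14 lay above the PBS median. Mouse 9 was the highest at 77.4 CPM, followed by mouse 1 at 66.0 CPM. The log2 fold change was 0.11 (SE 0.0716, 95% interval −0.03 to 0.26, adjusted p = 0.253), 0.07 without mouse 9, and −0.0068 with library size alone (−0.035 when mouse 9 was left out as well), so its sign rested on the scale. A difference from PBS as large as the size threshold of 0.5 lay outside this interval, whereas the intervals for Kap and Odc1 held it.

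The deposited library names carry sheet numbers that restart within each group, and this split the mice into 3 index series (4, 4 and 4 PBS, 4, 5 and 5 RGLS4326, 2, 2 and 1 WT mice), matched across groups by order alone. Within series 1, 2 and 3 the log2 fold change of Kap between RGLS4326 and PBS was 0.06, 0.42 and 0.57. For Odc1 it was −0.0078, 0.57 and 0.74, and for Gusb 0.04, 0.27 and 0.03. Mouse 9 is in series 2, and without it the series 2 values were 0.40, 0.41 and 0.15. None of these values passed the adjusted p. The values of Kap and Odc1 lay near 0 in series 1 and further above it in series 2 and 3. Whether the series differed from each other was not tested.

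**Figure D2:**
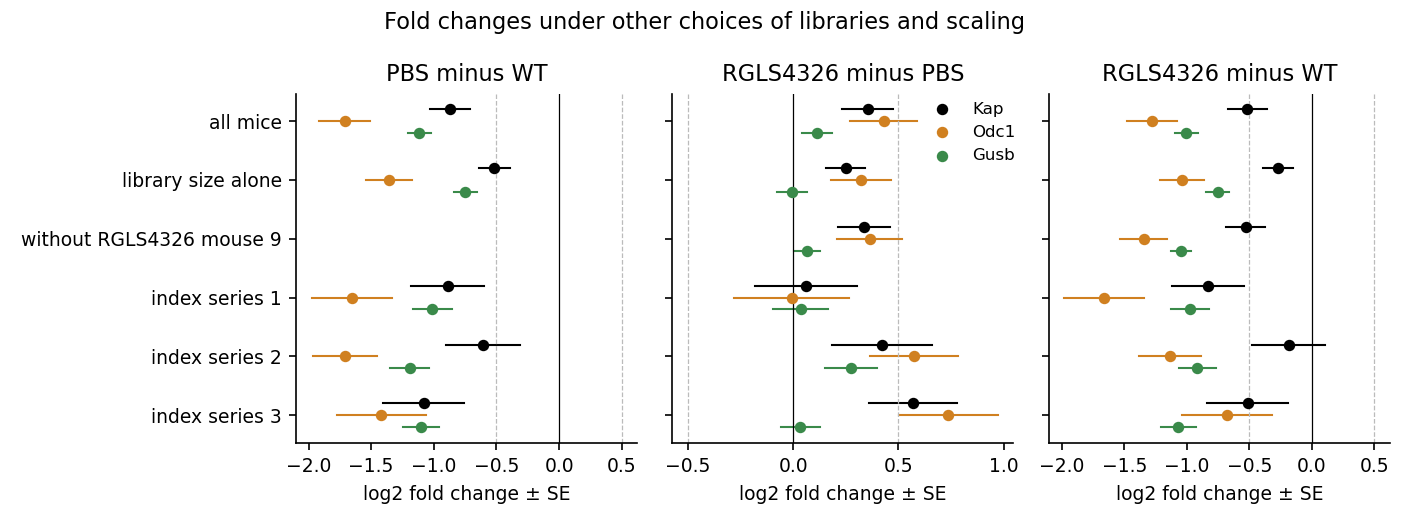
Log2 fold changes of Kap, Odc1 and Gusb (points, with bars of 1 SE) in the 3 comparisons, over all mice, with library size alone, without the library labelled RGLS4326 mouse 9 and within each index series. Dashed lines mark the size threshold of 0.5. Differences from WT lie left of 0 in each row, and between RGLS4326 and PBS those of Odc1 in series 1 and Gusb with library size alone sit at 0.

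Against WT, the RGLS4326 mice stayed lower in all 3 genes (over all genes 11.3% were called lower and 20.3% higher). These values share their samples with the comparisons above. Kap had a log2 fold change of −0.52 (SE 0.156, adjusted p = 0.00498), just past the size threshold. RGLS4326 mouse 8, at 37783 CPM, lay within the WT range and the other 13 below it. With library size alone the value was −0.27 (adjusted p = 0.0501), and within index series 1, 2 and 3 it was −0.83, −0.18 (−0.22 without mouse 9) and −0.51. Odc1 had a log2 fold change of −1.28 (SE 0.199, adjusted p = 4.1e-06), and only mouse 9, at 769 CPM, reached the lowest WT mouse. Gusb had a log2 fold change of −1.004 (SE 0.0900, adjusted p = 2.73e-09), and all 14 RGLS4326 mice lay below WT. Without mouse 9 the 3 values were −0.53, −1.35 and −1.05.

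The other genes of the male pattern were read next, from a list of 11 androgen-raised kidney genes. Between PBS and WT 7 were called lower and none higher, beside 17.8% and 24.6% of all genes, with a median log2 fold change of −1.29, against a median of 0.01 over all genes. Nudt19, a peroxisomal hydrolase of coenzyme A derivatives, fell from 1233 ± 374 to 200 ± 44.3 CPM (log2 fold change −2.62, adjusted p = 5.33e-09). Slco1a1, an organic anion transporter, fell from a range of 803 to 1044 CPM to one of 84.4 to 475 CPM (−2.08, adjusted p = 3.45e-08). Acsm3, a mitochondrial medium-chain acyl-CoA synthetase, and Cyp4b1, a cytochrome P450, had log2 fold changes of −1.49 and −1.67. Those not called were Adh1 (−0.32, past the adjusted p but not the size threshold), Cyp2e1 (−0.18), Cyp4a12b (−0.08) and Cyp2d9 (0.08), named after their values were seen. Cyp4a12a, at −1.47, is a near-identical copy of Cyp4a12b, so the split of reads between those genes is uncertain.

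After RGLS4326 3 of the 11 were called higher than in PBS mice, beside 0.935% of all genes, with a list median of 0.43, and 10 of 11 lay above 0. They were Nudt19 (0.73, adjusted p = 0.028), Slco1a1 (0.64, adjusted p = 0.0338) and Cyp4a12a (0.58, adjusted p = 0.0223). Cyp2j13, a further P450, passed the adjusted p but not the size threshold (0.40, adjusted p = 0.0202). Without mouse 9, which read 1135 CPM of Nudt19 against at most 383 in the rest of its group, 1 of the 11 was called, Cyp4a12a (0.54, adjusted p = 0.0359), beside 0.349% of all genes, and the list median was 0.35. Scaled by library size alone 2 of the 11, Nudt19 and Slco1a1, were called, beside 0.58% of all genes. Kap and Odc1, at 0.34 and 0.36 without mouse 9, stood near that median and Gusb, at 0.07, below it. The rise was not particular to this list. All 18 proximal tubule markers, described below, also lay above 0 between RGLS4326 and PBS. Their median was 0.35 (0.29 without mouse 9), where the median of all genes was −0.004.

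**Figure D3:**
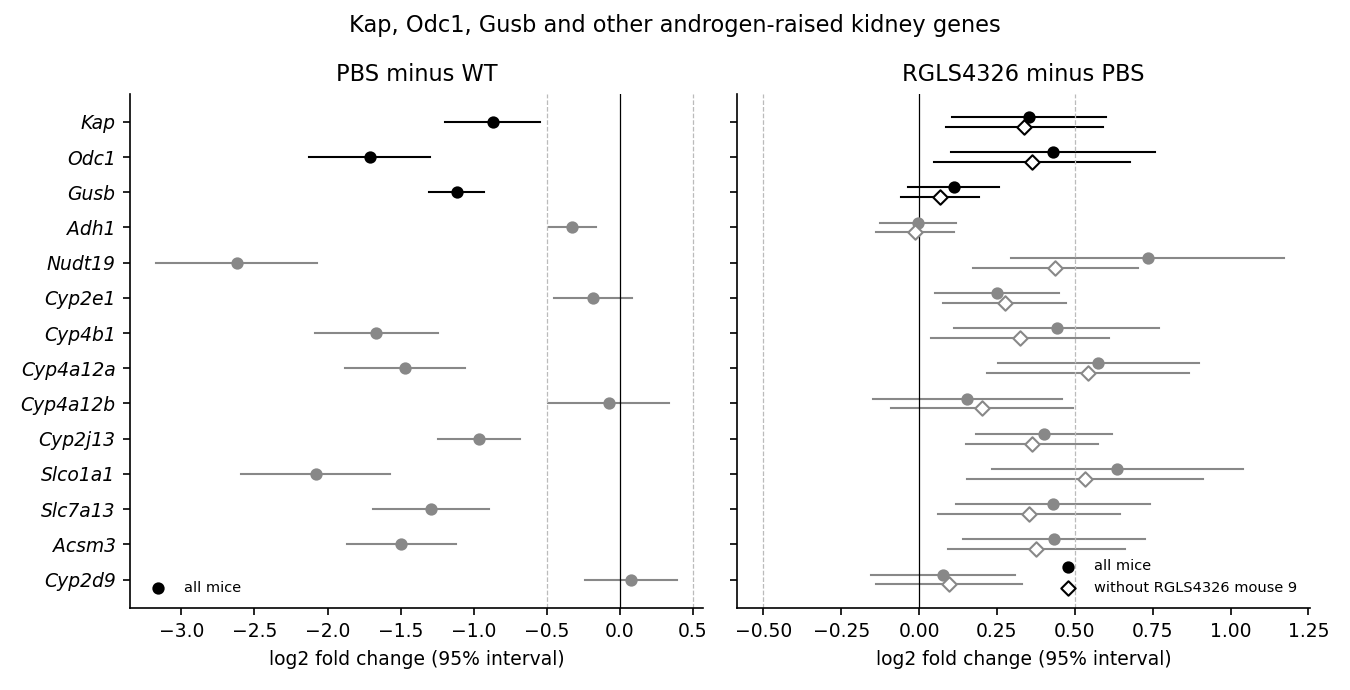
Log2 fold changes with 95% intervals of Kap, Odc1 and Gusb (black) and of 11 other androgen-raised kidney genes (grey), in PBS minus WT and in RGLS4326 minus PBS, on axes of different range. Filled circles use all mice, open diamonds leave out the library labelled RGLS4326 mouse 9, and dashed lines mark the size threshold of 0.5. Without that library the value of Nudt19 drops from 0.73 to 0.44.

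Genes known to be higher in female kidneys did not move in one direction. Of 5 on the list, 3 were called higher and 2 lower in PBS than in WT, where 24.6% and 17.8% of all genes were. Slc7a12, an amino acid transporter, rose from 1.23 ± 0.358 to 4.52 ± 1.19 CPM (log2 fold change 1.88, adjusted p = 4.7e-07), and Abcc3, an organic anion exporter, had a log2 fold change of 2.12. The organic anion transporters Slc22a19 and Slc22a7 were lower instead, at −1.09 and −1.82, in the direction of Kap, Odc1 and Gusb. After RGLS4326 Abcc3 was the only one called, lower than in PBS (−0.53, adjusted p = 0.04, beside 1.22% of all genes called lower), and without mouse 9 it was not (−0.48, adjusted p = 0.0655).

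Odc1 was set among the genes of polyamine metabolism. Of 21 listed, 18 passed the filter on low counts (Oaz3, Amd1 and Amd2 did not, and were named for that reason). Between PBS and WT 4 of the 18 were called higher and 4 lower, beside 24.6% and 17.8% of all genes, and the list median was −0.10. Azin1, the antizyme inhibitor that protects the Odc1 protein from degradation, fell from 175 ± 10.2 to 84.9 ± 15.95 CPM (log2 fold change −1.04, adjusted p = 1.03e-08). Atp13a3, a polyamine transporter, was also lower (−1.09). Dhps, which uses spermidine to modify the translation factor eIF5A, was higher, with a log2 fold change of 0.60. On library size alone this median turned to 0.27, below the 0.38 of all genes, with 6 called higher and 2, Azin1 and Atp13a3, called lower (41.4% and 7.05% of all genes). None of the 18 was called between RGLS4326 and PBS, where 0.935% of all genes were called higher and 1.22% lower. Azin1 had a log2 fold change of 0.34 there (adjusted p = 0.0177, below the size threshold) and Adc, listed today as Azin2, one of −0.29 (adjusted p = 0.0087), and without mouse 9 these were 0.30 and −0.29.

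Gusb was set among 23 other lysosomal enzymes, most of which act on sugar chains or sulfate esters. Between PBS and WT 6 were called lower and 2 higher, beside 17.8% and 24.6% of all genes, and the median log2 fold change was −0.27, above the −1.12 of Gusb. Arsb, which removes sulfate from dermatan sulfate, fell from 324 ± 55.2 to 119 ± 19.5 CPM (log2 fold change −1.45, adjusted p = 2.1e-09). Galc and Glb1, which remove galactose from glycolipids, had log2 fold changes of −1.09 and −1.33. Arsa, a sulfatase of the same family as Arsb, rose from 19.95 ± 2.04 to 35.4 ± 3.33 CPM (0.83, adjusted p = 1.91e-09). The list median turned to 0.10 on library size alone, below the 0.38 of all genes, with 7 called higher and 3, Arsb, Galc and Glb1, called lower (41.4% and 7.05% of all genes). None of the 23 was called between RGLS4326 and PBS, beside 0.935% of all genes called higher and 1.22% lower.

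The proximal tubule, where Kap, Odc1 and Gusb are known to be expressed, had lower marker levels in the same mice. The study itself used Gusb among the housekeeping genes that normalized its qPCR score of miR-17 targets. Of 18 markers 16 were called lower in PBS than in WT, with a median log2 fold change of −1.14, and their summed level was 32381 to 37090 CPM in WT, 10144 to 19576 in PBS and 13463 to 32263 in RGLS4326 mice (to 22542 without mouse 9). After RGLS4326 2 of the 18, Slc13a3 and Gatm, were called higher than in PBS (0.935% of all genes were), and none was without mouse 9 or with library size alone. All 18 lay above 0 in each of these fits, with a median of 0.35 (0.29 without mouse 9 and 0.24 with library size alone). No marker on this list was at 0. All 4 fibroblast markers, 3 of 4 macrophage markers and all 6 tubular injury markers were called higher in PBS than in WT, and 4 of 6 distal and collecting duct markers were higher with 2 lower. Their summed levels in WT and PBS mice were 94.4 to 163 against 468 to 965 CPM for fibroblasts. For macrophages they were 157 to 175 against 292 to 489 CPM, and for injury 490 to 1026 against 3101 to 7749. The distal and collecting duct markers summed to 1556 to 1871 against 1939 to 3063 CPM. Of these, Slc12a3 fell from a mean of 1011 to 630 CPM and Calb1 from 290 to 132, while Aqp2 rose from 231 to 1140. Among podocyte markers 1 of 4 was higher, among endothelial markers 1 of 4 was lower and among markers of the thick ascending limb 1 of 4 was lower, counts to be read beside the 24.6% and 17.8% of all genes called higher and lower. Under library size alone 2 of 4 podocyte markers and 2 of 4 markers of the thick ascending limb were called higher, and none of either was called lower, on a scale where 41.4% of all genes were called higher and 7.05% lower. Between RGLS4326 and PBS the log2 fold changes of the distal and collecting duct markers centred on a median of −0.36, and 5 of 6 passed the adjusted p, 4 of them lower (over all genes 6.66% passed it lower and 9.15% higher). Without mouse 9 those that passed were 4, all lower (3.48% of all genes). Aqp2, the vasopressin-regulated water channel of the collecting duct, was called lower (−0.56, adjusted p = 0.0265; −0.50, adjusted p = 0.0395 without mouse 9), and 2 of the 6 were called lower with library size alone. Of all genes 1.22% were called lower in this comparison, 0.607% without mouse 9 and 3.95% with library size alone. No macrophage marker was called with all mice. Without mouse 9 Emr1, a macrophage surface marker, was called higher (0.53, adjusted p = 0.0329), beside 0.349% of all genes. The other 3 macrophage markers lay below 0 in that fit, and the list median was −0.10. No fibroblast or injury marker was called between these groups, apart from 1 injury marker lower with library size alone. The part of any of these in the levels of Kap, Odc1 and Gusb was not tested.

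To set the genes beside the tubule, the mean log2(CPM + 1) of the 18 markers was subtracted from that of each gene in each mouse, a scale chosen after seeing the data. The marker mean was 10.03 ± 0.044 in WT, 8.85 ± 0.354 in PBS and 9.20 ± 0.318 in RGLS4326 mice. On this scale Kap was 0.27 higher in PBS than in WT (exact permutation test, two-sided, p = 0.0356, adjusted p = 0.080 over 9 tests), that is, it had fallen less than the markers. Odc1 was 0.57 lower in PBS than in WT (exact p = 0.0103, adjusted p = 0.0609), and Gusb differed by 0.08 (exact p = 0.712). Between RGLS4326 and PBS the differences were 0.04 for Kap, 0.11 for Odc1 and −0.24 for Gusb (permutation p = 0.676, 0.456 and 0.11), or 0.08, 0.10 and −0.23 without mouse 9. None of the 9 tests passed after adjustment. Without mouse 9 Kap between RGLS4326 and WT did (0.35, adjusted p = 0.0462), where with it the difference was 0.31 (adjusted p = 0.0609). The exact p of Odc1 between PBS and WT, which involves no RGLS4326 mouse, stayed at 0.0103, and its adjusted p became 0.0465 only because other tests of the 9 moved.

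Within a group, Kap and Odc1 rose and fell together from mouse to mouse, while no relation of Gusb with Kap passed the test. Whether the 2 correlations differ was not tested. Correlations of log2(CPM + 1) were taken within the 12 PBS and the 14 RGLS4326 mice, 18 relations in all, with two-sided permutation tests and adjustment over the 18. In PBS mice Kap and Odc1 had r = 0.80 (permutation p = 0.00111, adjusted p = 0.00666; rho = 0.85, permutation p = 0.00075), and r = 0.75 without the 2 mice farthest from the median of Kap. In RGLS4326 mice r was 0.76 (permutation p = 0.00201, adjusted p = 0.00774; rho = 0.73, permutation p = 0.00441), 0.68 without the 2 farthest mice and 0.75 without mouse 9. Kap and Gusb had r = −0.07 in PBS mice (permutation p = 0.826) and 0.46 in RGLS4326 mice (permutation p = 0.0997), and without the 2 farthest mice these were −0.61 and 0.33. Without mouse 9 the latter was 0.40. Odc1 and Gusb had r = 0.28 in PBS mice (permutation p = 0.355) and 0.74 in RGLS4326 mice (adjusted permutation p = 0.00798), but without the 2 farthest mice, 9 and 10, the latter was 0.48 (0.61 without mouse 9 alone), and the former, without PBS mice 4 and 9, turned to −0.63. In RGLS4326 mice rho, 0.55, did not pass (adjusted permutation p = 0.0829). An index series holds at most 5 mice of a group, too few for a correlation in a single series, so values were also centred on the series within each group and permuted within it, a choice made after seeing the data. Centred so, Kap and Odc1 had r = 0.75 in PBS mice (adjusted permutation p = 0.0234) and 0.72 in RGLS4326 mice (adjusted permutation p = 0.0374; 0.75 without mouse 9), and Odc1 and Gusb had 0.79 in RGLS4326 mice (adjusted permutation p = 0.0182; 0.73 without mouse 9). Kap and Gusb had −0.30 in PBS mice and 0.52 in RGLS4326 mice (adjusted permutation p = 0.461 and 0.148).

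Kap moved against Lcn2 within the PBS group. The mouse with the lowest Kap, PBS mouse 5 at 13789 CPM, read 1088 CPM of Lcn2, and the mouse with the highest Kap, PBS mouse 4 at 31683 CPM, read the lowest Lcn2 of the group, 205 CPM. Over the 12 mice r was −0.94 (permutation p = 4e-05, adjusted p = 0.00072; rho = −0.97, permutation p = 1e-05, the smallest these permutations can give), and −0.90 without mice 4 and 5. In RGLS4326 mice r was −0.50 (adjusted permutation p = 0.110) and rho −0.75 (adjusted permutation p = 0.00986), and without mouse 9, whose Lcn2 was 2.76 CPM, r was −0.65. Without the 2 mice farthest from the median of Kap it was −0.63. Odc1 and Lcn2 had r = −0.82 in PBS mice (adjusted permutation p = 0.00378; rho = −0.84, adjusted permutation p = 0.00495; −0.78 without the 2 farthest mice) and −0.64 in RGLS4326 mice (adjusted permutation p = 0.021; rho = −0.49, adjusted permutation p = 0.122), where the relation rested on mice 9 and 10 (r = −0.28 without them, −0.45 without mouse 9 alone). Gusb and Lcn2 had r = 0.03 in PBS mice (permutation p = 0.936; rho = 0.36, permutation p = 0.256), and 0.59 without PBS mice 4 and 7. In RGLS4326 mice their r of −0.66 (adjusted permutation p = 0.0499; rho = −0.22, adjusted permutation p = 0.503) rested on mouse 9, without which it was −0.11. Centred on the index series, r with Lcn2 in PBS mice was −0.92 for Kap and −0.78 for Odc1 (adjusted permutation p = 0.0117 and 0.0262). In RGLS4326 mice it was −0.41 for Kap, −0.59 for Odc1 and −0.71 for Gusb, none of which passed (adjusted permutation p = 0.269, 0.0522 and 0.087).

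Kap followed the proximal tubule markers as well, with r = 0.81 in PBS mice (adjusted permutation p = 0.00774; rho = 0.78, adjusted permutation p = 0.0113) and 0.66 in RGLS4326 mice (adjusted permutation p = 0.0217; rho = 0.79, adjusted permutation p = 0.00495), and 0.86 and 0.77 without the 2 farthest mice. For Odc1 and the markers r was 0.60 and 0.56 (adjusted permutation p = 0.0603 and 0.0623), and 0.66 and 0.29 without the 2 farthest mice. Without mouse 9 the RGLS4326 values were 0.66 for Kap and 0.34 for Odc1. For Gusb it was −0.41 and 0.40 (adjusted permutation p = 0.225 and 0.201), and without the 2 farthest mice −0.84 in PBS mice and 0.17 in RGLS4326 mice. Leaving out mouse 9 alone turned the latter to −0.06. Centred on the index series, Kap kept its relation with the markers in PBS mice (r = 0.89, adjusted permutation p = 0.0117) and lost it in RGLS4326 mice (r = 0.58, adjusted permutation p = 0.095).

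**Figure D4:**
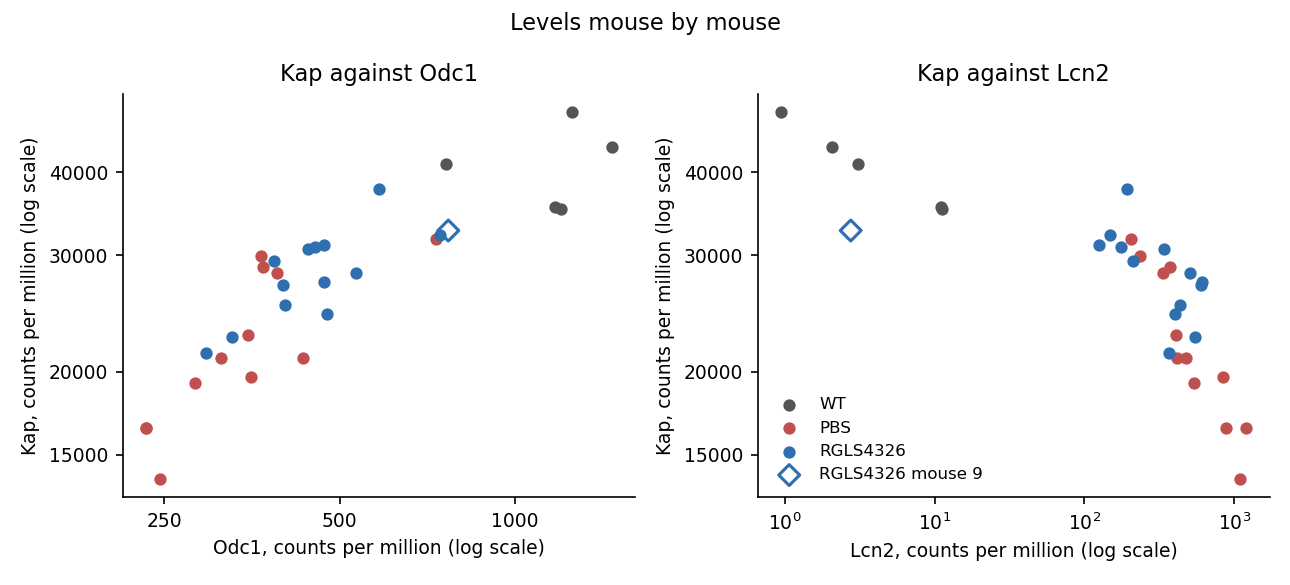
Kap against Odc1 (left) and against Lcn2 (right) in each of the 31 mice, in CPM on log axes, coloured by group, with the library labelled RGLS4326 mouse 9 as an open diamond. Among PBS mice Kap rises with Odc1 (r = 0.80) and falls with Lcn2 (r = −0.94), and WT mice and mouse 9 stand apart at Lcn2 of 11.2 CPM or less.

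The genes whose pattern was most like each of the 3 were found by Pearson's r of log2(CPM + 1) over the 31 mice after the mean of each group was subtracted, over the 11523 genes that averaged 5 CPM or more. The mice share libraries and depth across genes, and the values are descriptions. For Kap the 5 nearest were M6pr, the cation-dependent mannose 6-phosphate receptor (r = 0.94), Acat1, a mitochondrial thiolase (0.93), Chpt1, a choline phosphotransferase (0.91), Eci3, an enoyl-CoA isomerase (0.91), and Cckar, the cholecystokinin A receptor (0.91). For Odc1 they were Cmtm6 (0.93), Agps, an enzyme of ether lipid synthesis (0.89), Cycs, cytochrome c (0.87), Slco1a1, the androgen-raised transporter above (0.87), and Cd36, a fatty acid carrier (0.87). For Gusb the highest values were lower: Rnf149 (0.68), Cers5, a ceramide synthase (0.67), Sec24d, a COPII coat subunit (0.67), Npc1, a lysosomal cholesterol transporter (0.66), and Usp20 (0.65). Without mouse 9 the 5 values ran from 0.91 to 0.96 for Kap, from 0.85 to 0.92 for Odc1 and from 0.50 to 0.64 for Gusb. In the same measure Odc1 stood at place 883 for Kap (r = 0.72) and Gusb at place 5489 (r = 0.12), out of the 11523 genes.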

How the data were processed

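RNA of 31 kidneys was made into TruSeq stranded mRNA libraries and sequenced by the authors as paired reads. Per the labels, FastQC 0.11.2, Trim Galore, STAR, SAMtools 1.1, HTSeq 0.6.1 and Picard 1.119 were used, on mm10 (GRCm38). The deposited files hold raw counts per gene. HTSeq's summary rows, 26.9% to 31.1% of a file's total, were left out. Reads with more than 1 alignment are among them, so close copies are undercounted.

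Here 15185 genes passed filterByExpr and were fitted over the 31 mice, 1 coefficient per group, by the quasi-likelihood test of edgeR 4.0.16 in R 4.3.3, with TMM factors. Permutation tests drew 100000 resamples or were exact. DESeq2 1.42.0, other scalings, no filter, 2 groups alone, index series, a replicate block and each mouse left out were alternatives. The scripts were tested on simulated data. Promoter, microRNA and transcript sequences were taken from RefSeq and GENCODE tables. Genes, lists and tests were chosen with earlier results of these data known. Named were the 3 genes, Lcn2, from each list up to 4 and 3 genes of smallest p in PBS minus WT and RGLS4326 minus PBS, and for each of the 3 genes the 5 most alike. Other names came after seeing the values. The labels number the samples without naming animals, so p-values measure the spread between these samples, which may be technical in part. Some genes of the naming rule, and a list that one headed, are not reported here.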

Additional observations from a re-analysis of the deposited data

Results flagged for a closer look

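Dixon's ratio was taken in the 5 WT mice for 143 genes, of which chance flags about 1 in 20 groups; 7 genes stood out, none of them Kap, Odc1 or Gusb. Glb1 read 173.7 CPM in WT mouse 1, the lowest of the WT group, whose median was 245 CPM and mean 232 CPM. Amd1 read 0.0605 CPM in WT mouse 4 and was at 0 in the other 4, a level at which it failed the filter on low counts.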

How the results depend on the processing

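Differences of Kap, Odc1 and Gusb between PBS and WT kept their direction and call under each alternative but 1: Kap within index series 2 (log2 fold change −0.61, adjusted p = 0.112). Leaving out 1 mouse gave −0.93 to −0.79 for Kap, −1.86 to −1.61 for Odc1 and −1.17 to −1.05 for Gusb. Between RGLS4326 and PBS, Odc1 reversed in index series 1 (−0.0078) and Gusb with library size alone (−0.0068, or −0.035 with mouse 9 left out as well). Kap (0.35) was called only with no threshold on size. Leaving out 1 mouse gave 0.30 to 0.41 for Kap (adjusted p under 0.05 in 11 of 26 fits), 0.36 to 0.57 for Odc1 (called without PBS mouse 4) and 0.07 to 0.15 for Gusb. DESeq2's Wald test gave adjusted p = 0.0384 for Odc1 and 0.018 for Kap, both under the size threshold. Between RGLS4326 and WT the call of Kap was lost with the index series as a covariate (−0.49), with library size alone (−0.27) and in series 2 (−0.18) and 3 (−0.51), also with mouse 9 left out (−0.27 with library size alone, −0.22 in series 2), and that of Odc1 in series 3 (−0.68). Leaving out 1 mouse gave −0.56 to −0.44 for Kap, lost without RGLS4326 mouse 2 or 12 or WT mouse 1 or 2, −1.40 to −1.18 for Odc1 and −1.06 to −0.93 for Gusb. The causes were not tested.

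Genes called between RGLS4326 and PBS numbered 327, and 78 to 574 with 1 mouse left out (78 without PBS mouse 10, 574 without RGLS4326 mouse 2), 43 with the replicate block (10 with mouse 9 left out as well), 210 in the 2 groups alone, 688 with library size alone, 2402 with no size threshold and 0 within each index series, where 280, 2981 and 3045 genes had an unadjusted p under 0.05 by edgeR. Between PBS and WT 6442 were called (11281 with no size threshold), and between RGLS4326 and WT 4789 (372 and 2471 in series 2 and 3, 9861 with no size threshold). With library size alone the median of all genes stood at −0.12 between RGLS4326 and PBS and 0.26 between RGLS4326 and WT, and the share of calls that were higher went from 43.4% to 12.8% and from 64.3% to 86.2%. Same-numbered PBS and RGLS4326 mice had deviations correlated at −0.08 on average over 12 pairs, 4 of them over 0.1 and 2 mice best matched to their own number, so the number was not taken to pair the mice. With the replicate block, Kap, Odc1 and Gusb had 0.36, 0.45 and 0.13 between RGLS4326 and PBS (adjusted p = 0.116, 0.119 and 0.191), or 0.30, 0.33 and 0.09 with mouse 9 left out, and the replicate block changed no call of the 3 genes in any of the 3 comparisons, but Kap between RGLS4326 and PBS no longer passed the adjusted p. The relation of Gusb with Lcn2 in RGLS4326 mice missed the threshold with either other pseudocount and with DESeq2 size factors (r = −0.67 to −0.65). Centred on the index series it missed it too (−0.71), as did Odc1 with Lcn2 (−0.59) and Kap with tubule markers (0.58) in RGLS4326 mice. The other relations kept their direction and call under the other pseudocounts, DESeq2 size factors and this centring. Leaving out mice turned the sign of some of them, as given above. Library size alone, mouse 9 left out together with another choice, centring on the index series, the fits of the lists without mouse 9 and the scale relative to tubule markers were chosen after seeing the data. Counts of the 3 genes were at least 818 in each library, so counting error was small beside the spread between mice.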
